A study of Mus musculus with 8 samples.

Results

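The 9 meiotic recombination genes *Spo11*, *Dmc1*, *Mei1*, *Msh4*, *Msh5*, *Mlh3*, *Prdm9*, *Zcwpw1* and *M1ap* were taken by name, and all non-control probes whose RefSeq accession belongs to one of them were used. All 9 of 9 had a probe, 13 probes in all, among 19751 named genes on the array. RNA of VV3 cells, a male mouse embryonic stem cell (ESC) line with a *Vasa*::Venus reporter transgene, was measured on 8 one-colour Agilent arrays. The 4 control samples had received AllStars siRNA, which targets no gene, and the other 4 samples siRNA against *L3mbtl2*, which encodes a subunit of the non-canonical polycomb complex PRC1.6. Per the methods, Vasa-positive cells were purified by fluorescence-activated sorting. Their section on data analysis names the KD cells as Vasa-positive and the controls only as transfected ESCs. VV3 cells are grown on inactivated fibroblast feeder cells. On each array 59.5 to 66.6% of the spots gave a signal well above background, and the small number of arrays limits the precision.

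In meiosis, PRDM9 marks hotspots by methylating histone H3, and ZCWPW1 binds the marks. SPO11 cuts the DNA at such sites together with a set of partner proteins that includes MEI1, and DMC1 pairs the cut ends with the homologous chromosome. MSH4 and MSH5 hold the joined molecules, M1AP works with the proteins that stabilise them, and MLH3 takes part in turning them into crossovers.

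The siRNA target was checked first. Values are log2 intensities relative to the 75th percentile of each array. *L3mbtl2* was at 0.27, -0.18, -0.21 and -0.31 in control replicates 1 to 4 and at -1.45, -1.26, -1.58 and -1.73 in *L3mbtl2*-KD replicates 1 to 4. The groups did not overlap. Its level in KD cells was 37.9% of the control level (log2 fold change -1.40, standard error 0.152, adjusted p = 0.000944 in limma with Benjamini-Hochberg adjustment). *Ddx4*, the gene the reporter is built on, was 7.11-fold higher in KD cells, and the KD cells had been sorted on that reporter. *Dazl* and *Stra8*, a germ cell RNA-binding protein and a gene of meiotic entry, were 3.04-fold and 2.53-fold higher.

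A gene was called at an adjusted p under 0.05 and a change of more than 2-fold in at least 1 probe. Of the 9 genes, 8 passed the filter on dim probes and were tested. *Zcwpw1*, *M1ap* and *Msh4* were called higher and 0 lower, against 2.49% of all 13652 named genes tested called higher and 3.21% called lower. At an unadjusted p under 0.05 in limma, whatever the fold, 4 were higher and 0 lower, against 18.2% and 20.5% of all genes tested. The call of *Msh4* came from 1 of its 2 probes, which passed the filter only through the KD samples. The median log2 fold change of the 8 genes was 0.22, and that of all genes tested was -0.01. The members were chosen with results known, so the count is a description.

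*Zcwpw1* encodes the reader of the histone marks that PRDM9 writes. It was at -1.88, -2.41, -2.35 and -2.08 in the control samples and at 1.63, 1.19, 1.39 and 1.66 in the KD samples. Every KD sample was above every control sample, and the gap between the groups was wider than the spread within either. The mean was 1.47 ± 0.22 (SD, n = 4) in KD cells and -2.18 ± 0.25 (SD, n = 4) in control cells. This is a 12.5-fold rise (log2 fold change 3.65, standard error 0.154, adjusted p = 1.03e-05 in limma). The first of the 2 slides alone gave 3.56 and the second 3.74, with adjusted p-values of 0.0561 and 0.00482 in limma on 2 against 2 samples, and a slide block gave 3.65.

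*Prdm9* has 2 probes. The brighter one was at -3.77, -4.94, -5.75 and -5.33 in the control samples and at -4.80, -3.92, -4.82 and -4.26 in the KD samples. The groups overlapped, and the probe was well above background in 3 of 4 control samples and in all 4 KD samples. Its log2 fold change of 0.50 had a 95% interval from -0.43 to 1.43 (adjusted p = 0.437 in limma). Single samples moved it from 0.23, without control replicate 3, to 0.89, without control replicate 1 (adjusted p = 0.0615 in limma), and the slides alone gave -0.0060 and a value near 2-fold. The other probe was not well above background on any array.

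The promoters of *Zcwpw1*, *M1ap* and *Msh5* are shown because the first 2 genes moved and the third, of the same pathway, had a narrow interval around 0. The 250 bases before each start are given 5′ to 3′ on the strand of the gene, from RefSeq GRCm38.p6, at chr5:137787081-137787330 (+) and chr5:137787552-137787801 (+) for the 2 starts of *Zcwpw1*, chr6:82946672-82946921 (+) for *M1ap* and chr17:35046623-35046872 (-) for *Msh5*. Capitals mark matches to the letters searched.
Zcwpw1, start 1: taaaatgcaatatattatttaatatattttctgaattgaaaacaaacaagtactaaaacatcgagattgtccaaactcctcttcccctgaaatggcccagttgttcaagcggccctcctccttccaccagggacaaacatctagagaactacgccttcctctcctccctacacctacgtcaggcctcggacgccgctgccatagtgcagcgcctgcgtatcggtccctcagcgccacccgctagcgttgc
Zcwpw1, start 2: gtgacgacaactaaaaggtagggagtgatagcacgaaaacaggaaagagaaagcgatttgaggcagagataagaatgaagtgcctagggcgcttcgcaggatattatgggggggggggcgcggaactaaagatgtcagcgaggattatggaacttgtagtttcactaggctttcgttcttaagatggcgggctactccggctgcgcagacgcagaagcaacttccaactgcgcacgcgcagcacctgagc
M1ap: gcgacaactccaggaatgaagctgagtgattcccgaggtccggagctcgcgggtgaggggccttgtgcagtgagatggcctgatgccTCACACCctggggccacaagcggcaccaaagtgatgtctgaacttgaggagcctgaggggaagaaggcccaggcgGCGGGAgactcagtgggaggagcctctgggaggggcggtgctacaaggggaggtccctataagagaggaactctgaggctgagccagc
Msh5: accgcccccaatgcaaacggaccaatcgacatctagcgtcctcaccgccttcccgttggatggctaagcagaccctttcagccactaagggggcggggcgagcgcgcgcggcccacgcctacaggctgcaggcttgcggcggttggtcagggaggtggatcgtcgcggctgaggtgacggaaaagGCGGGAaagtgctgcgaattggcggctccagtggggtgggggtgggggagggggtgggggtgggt

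Searched on both strands were CACGTG, the E-box that MAX dimers can bind, GCGGGA, a core of E2F sites, and GGTGTGA, a core of T-box sites. These letters were chosen after earlier results of these data and the promoters had been seen. Over the 32851 promoter windows of the table, 6.02% held the E-box, 16.9% the E2F core and 3.33% the T-box core. Neither window of *Zcwpw1* held any of them. The window of *M1ap* held the T-box core 163 bases and the E2F core 88 bases before the start, and that of *Msh5* held the E2F core 65 bases before it. The *Zcwpw1* windows had 13 and 16 CpG dinucleotides, *M1ap* 9 and *Msh5* 22, where the median window had 6. Of the 9 genes, 8 had a window and *Spo11* had none. A match is a description of the letters and not a binding site.

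*Spo11*, which encodes the enzyme that makes the DNA breaks, was not well above background on any of the 8 arrays, and no fold is given. *Mei1*, which is needed for break formation, was at -2.51, -3.08, -2.14 and -2.56 in the control samples and at -2.75, -2.99, -2.85 and -2.59 in the KD samples. The groups overlapped. Its log2 fold change was -0.23 with a 95% interval from -0.65 to 0.20 (adjusted p = 0.448 in limma).

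*Dmc1*, the meiosis-specific recombinase, was above background on all arrays with each of its 3 probes. The brightest was at -0.21, -0.20, -0.24 and -0.02 in the control samples and at 0.12, 0.16, 0.17 and 0.26 in the KD samples. The groups did not overlap, as in 12.7% of all genes tested for differences in this direction. The difference of 0.34 on the log2 scale (standard error 0.0823, adjusted p = 0.0229 in limma) is 1.27-fold and short of the 2-fold threshold. The other 2 probes gave 0.18 and 0.26, with adjusted p-values of 0.284 and 0.176 in limma and overlapping groups. With the replicate number as a block in limma, the adjusted p-values of these 2 probes were 0.0386 and 0.0286, and that of the brightest was 0.00511. The differences stayed short of 2-fold. The adjusted p of the brightest probe was not under 0.05 without any 1 of 4 of the 8 samples (up to 0.0737), with no filter on dim probes (0.0631) or within either slide (0.337 and 0.141).

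*M1ap* encodes a partner of the crossover-stabilising proteins in spermatocytes. It was at -0.02, 0.06, -0.01 and -0.16 in the control samples and at 1.16, 1.24, 1.27 and 1.35 in the KD samples. The groups were far apart compared with their spread, 1.26 ± 0.08 (SD, n = 4) in KD and -0.03 ± 0.09 (SD, n = 4) in control cells. *M1ap* rose 2.44-fold (log2 fold change 1.29, standard error 0.0838, adjusted p = 0.000117 in limma). Slide 1 alone gave a log2 fold change of 1.18 and slide 2 alone 1.40, with adjusted p-values of 0.0723 and 0.00993 in limma, and a slide block gave 1.29.

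The 2 probes of *Msh4* disagreed. The brighter was at -4.12, -3.43, -4.51 and -4.92 in the control samples and at -3.74, -4.03, -4.06 and -4.77 in the KD samples. These values overlapped, and the log2 fold change was 0.10 (95% interval from -0.65 to 0.85, adjusted p = 0.872 in limma). The dimmer probe was at -5.26, -4.84, -5.01 and -6.10 in the control samples, of which 2 of 4 were well above background, and at -4.73, -4.03, -3.90 and -4.29 in the KD samples. Here the groups did not overlap. The fitted difference was 1.07 on the log2 scale, past 2-fold, with a standard error of 0.287 and an adjusted p of 0.0352 in limma. Control values under the lowest signal well above background on their array were then raised to it. On average KD cells were at least 1.93-fold higher, which is short of the threshold. Such a bound leaves out sampling error, and the 95% interval of the fitted difference began at 0.41 on the log2 scale. The call was lost without any 1 of 6 of the 8 samples, under normexp background correction (log2 fold change 0.49), with no filter on dim probes (adjusted p = 0.0814 in limma, over a range of 0.0151 to 0.416 in all alternatives), in the adjusted one-way test (adjusted p = 0.0865) and within each slide. The probe does not pass a filter for signal on all 8 arrays, and with one probe per gene the brighter one stands for *Msh4*.

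*Msh5*, the partner of *Msh4*, was at -2.68, -3.02, -2.72 and -2.76 in the control samples and at -2.83, -2.95, -2.86 and -2.75 in the KD samples. The groups overlapped, with a log2 fold change of -0.05 and a 95% interval from -0.27 to 0.17. *Mlh3* was at -1.11, -1.91, -1.46 and -1.73 in the control samples and at -1.18, -1.81, -1.42 and -1.39 in the KD samples. These overlapped too, with a log2 fold change of 0.10 and an interval from -0.34 to 0.55. Both intervals are of the unpaired fit. With the replicate number as a block, the standard error went from 0.0979 to 0.0575 for *Msh5* and from 0.195 to 0.0783 for *Mlh3*. Neither gene passed the test with this block (adjusted p = 0.502 and 0.326 in limma).

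**Figure D1:**
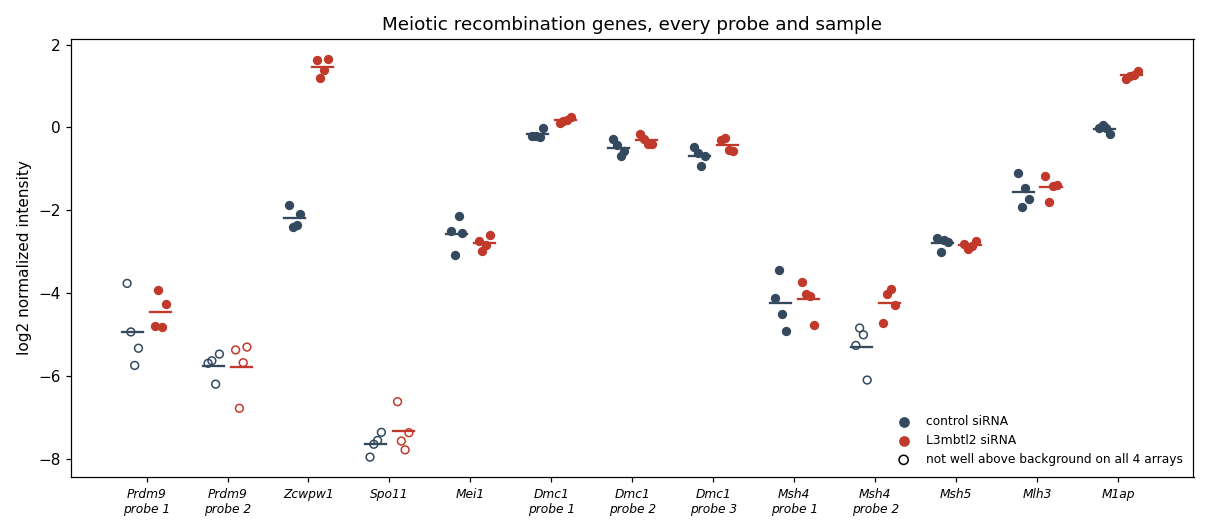
Log2 normalized intensity of each probe of the 9 genes in the 4 control (dark) and 4 *L3mbtl2* siRNA (red) samples, with the group mean as a line and open points where a probe was not well above background on all 4 arrays of a group. The groups of *Zcwpw1* (-2.41 to -1.88 against 1.19 to 1.66) and *M1ap* stand clear of each other, and those of *Mei1*, *Msh5* and *Mlh3* overlap.

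The genes next to the called members were examined in RefSeq order. On either side of *Zcwpw1* lie *Mepce* and *Ppp1r35*, with log2 fold changes of 0.13 and 0.18 and overlapping groups, and *Pilra* and *Pilrb1*, neither of which was well above background on all arrays of a group. Around *M1ap*, *Sema4f*, *Hk2* and *Dok1* had log2 fold changes of 0.25, -0.04 and 0.04 with overlapping groups, and *Loxl3* was not well above background on any array. Next to *Msh4*, *Rabggtb* was lower in KD cells (log2 fold change -0.48, adjusted p = 0.0114 in limma) and did not reach 2-fold. *Acadm* was at 0.05, and *Asb17* and *St6galnac3* did not pass the filter.

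**Figure D2:**
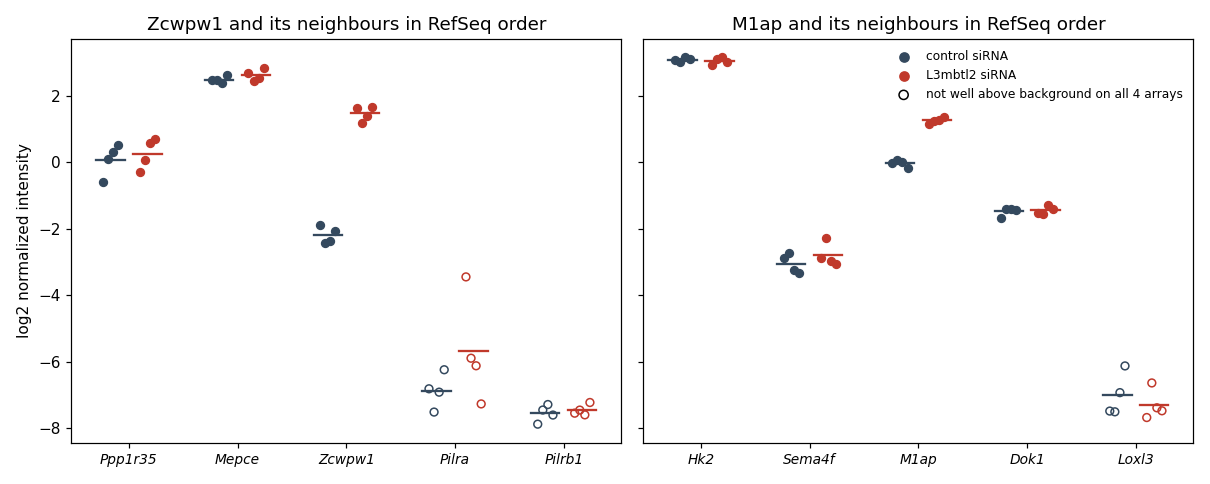
Log2 normalized intensity of *Zcwpw1* and *M1ap* and the 2 nearest named genes on each side, in RefSeq order and not to scale, in the control (dark) and *L3mbtl2* siRNA (red) samples, with group means as lines and open points where a probe was not well above background on all 4 arrays of a group. The groups of the neighbours that were tested overlap, with log2 fold changes from -0.04 to 0.25.

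The genes most like *Zcwpw1* over the 8 samples, after each gene's mean was subtracted, were *Gm2012*, *Gm15023* and *Tdrkh*, with root mean square differences of 0.16, 0.24 and 0.26. *Tdrkh* had a log2 fold change of 3.21. *Gm2012* was well above background in 2 of 4 control samples and *Gm15023* in 1 of 4, so their likeness rests in part on values at background. Bounded as for *Msh4*, they were at least 10.5-fold and 9.11-fold higher. For *M1ap* they were *Gal3st1*, *Plac9a* and *Sohlh2*, at 0.08, 0.09 and 0.12. For the brighter *Msh4* probe they were *Oas1e*, *Mep1b* and *Klk1b3*, at 0.23, 0.23 and 0.24, none of which passed the test.

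The other meiosis-specific genes of recombination were taken as a list of 22, of which 17 had a probe and 13 were tested. Of these, 6 were called higher and 1 lower, against 2.49% and 3.21% of all genes, and their median log2 fold change was 0.42. The crossover group of this list held 8 genes, of which 3 had no probe and *Hfm1* was not well above background on any array. The 4 that were tested were all called higher. *Prr19*, whose product works with that of *Cntd1* in choosing crossover sites, was at -2.13, -2.73, -2.50 and -2.03 in the control samples and at 0.45, 0.35, 0.90 and 1.12 in the KD samples. The groups were wide apart, an 8.30-fold rise (adjusted p = 0.000159 in limma). *Cntd1* itself rose 2.20-fold. Under normexp background correction its log2 fold change was 0.62, short of the threshold. *Ccnb1ip1*, which encodes the ubiquitin ligase HEI10, was at -2.80, -3.56, -3.82 and -3.98 in the control samples and at -1.59, -1.99, -1.95 and -1.96 in the KD samples, a 3.18-fold rise without overlap (adjusted p = 0.00313 in limma). *Tex11*, an X-linked partner of M1AP, rose 2.66-fold with its brighter probe and 2.57-fold with the other, which lacked a value in 1 control sample.

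Among the break formation partners, *Iho1* rose 2.11-fold (adjusted p = 0.00328 in limma). Under normexp its log2 fold change was 0.89, short of the threshold. *Rec114* was higher at 1.33-fold (adjusted p = 0.0131 in limma), short of the threshold of 2-fold. *Mei4* was lower with 1 of its 2 probes, with a log2 fold change of -1.29 (adjusted p = 0.0375 in limma). Of the KD samples 2 of 4 were not well above background, so the probe passed the filter only through the control samples. The bound is at least 2.25-fold. Its log2 fold change ran from -0.40 under normexp to -1.79 within the second slide, and the call was lost in 11 of 25 alternatives. The other *Mei4* probe was well above background in 1 control sample and 0 KD samples and was not tested. In the strand exchange group *Tex15* rose 2.45-fold with 1 probe, and its other probe was not above background. *Mnd1*, *Psmc3ip* and *Brme1*, at -0.04, 0.33 and -0.39 on the log2 scale, did not pass the test.

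Repair genes that dividing cells also use were a list of 42, of which 41 were tested. *Eme2*, a partner of the nuclease MUS81, was called higher (2.68-fold, adjusted p = 0.000239 in limma) and 0 were called lower, so that 2.44% were called higher beside 2.49% of all genes. The median log2 fold change was 0.03. At an unadjusted p under 0.05 in limma 7 were higher and 6 lower, against the 18.2% and 20.5% of all genes. At an adjusted p under 0.05 whatever the fold, 3 were higher and 4 lower, against 10.3% and 11.7% of all genes tested. *Fignl1* and *Rad54b* were lower in both of their probes, with log2 fold changes of -0.82 and -0.76 in the brighter one. The bright genes *Swi5*, *Rpa1*, *Sfr1*, *Msh6*, *Exo1* and *Blm* lay between -0.02 and 0.32 and did not pass the test, which was unpaired. In *Rpa1*, *Msh6* and *Exo1* each KD sample was above the control sample with the same replicate number. In the other bright genes the pairs went both ways. With the replicate number as a block, 1 shared repair gene was called higher and 0 lower, as without it. Adjusted p-values of the bright genes with this block are not given here. *Mre11a* was lower at -0.36 (adjusted p = 0.0131 in limma).

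The chromosome axis and the synaptonemal complex, on which recombination takes place, were a list of 14, of which 11 were tested. Of these 4 were called higher and 3 lower, beside 2.49% and 3.21% of all genes, and the median log2 fold change was 0.56. *Syce3* was at -0.51, -0.34, -0.31 and -0.48 in the control samples and at 1.46, 1.59, 1.72 and 1.66 in the KD samples, a 4.04-fold rise with no overlap (adjusted p = 1.77e-05 in limma). *Syce1*, another protein of the central element, was at 1.48, 0.96, 1.33 and 1.32 in the control samples and at -0.28, -0.39, -0.15 and -0.27 in the KD samples. It fell by 1.54 on the log2 scale, again without overlap (adjusted p = 0.000241 in limma).

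*Sycp1*, *Rec8* and *Hormad2* were the other genes called higher, at 3.46-fold, 2.60-fold and 2.27-fold. The call of *Hormad2* was lost in 7 of 25 alternatives, with log2 fold changes down to 0.86. *Tex12* and *Hormad1* were the other genes called lower, with log2 fold changes of -1.23 and -1.17, and at -0.42 and -0.96 under normexp, short of the threshold. *Smc1b* and *Syce2* were higher by 0.68 and 0.56, short of the threshold. *Sycp3* and *Six6os1* had log2 fold changes of -0.11 and -0.04 and did not pass the test.

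**Figure D3:**
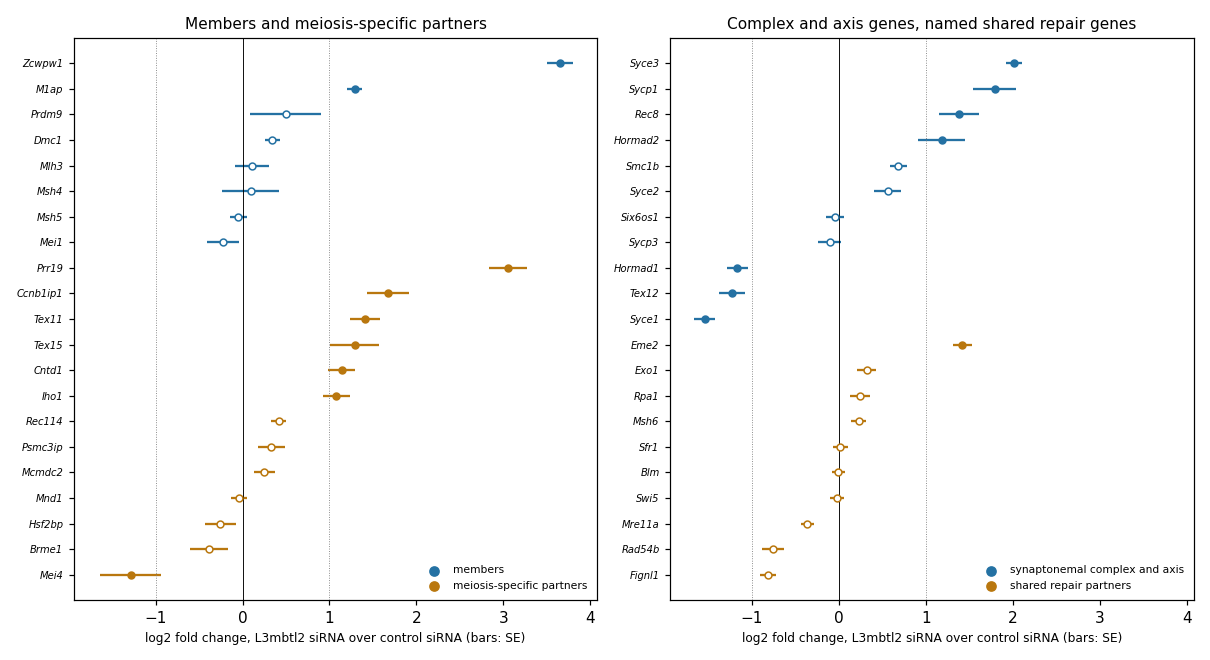
Log2 fold change of *L3mbtl2* siRNA over control siRNA with its standard error for the tested members, meiosis-specific partners and axis genes and for the 10 shared repair genes named in the text, 1 probe per gene (the brightest, so that *Msh4* appears at 0.10), with filled points for those past both thresholds and dotted lines at 2-fold. *Zcwpw1* and *Prr19* lie at 3.65 and 3.05, and *Fignl1* is the lowest of the shared repair genes drawn, at -0.82.

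Markers of cell types were read beside these genes. All 9 ESC markers were well above background on all arrays, and 0 were called. *Nanog* had a log2 fold change of -1.32, past 2-fold, at an adjusted p of 0.0962 in limma and with overlapping groups. *Klf4* was lower at an adjusted p of 0.0274 in limma, short of 2-fold. The summed linear intensity of these markers, in units of the 75th percentile, was 195.4, 188.3, 197.7 and 175.9 in the control samples and 157.9, 168.4, 170.2 and 166.3 in the KD samples, with *Utf1* the brightest. Every KD sample was below every control sample. Of 13 feeder fibroblast markers, 10 were tested and 6 were called lower, against 3.21% of all genes, among them *Col1a1* (log2 fold change -2.22) and *Col1a2* (-2.81). The tested markers that were not called were *Thy1* (-0.86), *Tagln* (-0.58), *Twist1* (-0.42) and *Fbn1* (0.16). *Col3a1* and *Dcn* had no KD sample well above background and have bounds there, at least 7.81-fold lower for the first and at least 12.1-fold for the second. Such a bound sets the control mean against the higher of the probe's own signal and the lowest signal well above background on each KD array. It leaves out sampling error. *Col5a2*, *Lum* and *Postn* were not well above background on any array. The summed intensity of the feeder list was 5.63, 12.9, 11.6 and 14.4 in the control samples and 4.92, 4.88, 5.49 and 5.43 in the KD samples. The brightest marker in these sums was *Tagln*, which was not called.

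Of 11 markers of the two-cell-like state, 8 were tested and 7 called higher, against 2.49% of all genes, with *Zscan4f* the brightest. The tested marker that was not called, *Zfp352*, had a log2 fold change of -0.15 (adjusted p = 0.389 in limma). *Usp17la* was called by its brighter probe (2.53), and its other tested probe gave 0.28 (adjusted p = 0.328 in limma). One of the 7, *Tdpoz4*, was well above background in 1 of 4 control samples, its groups overlapped, and its bound is at least 2.40-fold. The summed intensity of the two-cell-like list was 25.4, 30.0, 16.8 and 17.8 in the control samples and 93.0, 91.0, 50.5 and 51.3 in the KD samples. Fewer cells of a type and less RNA per cell cannot be told apart in such bulk samples. The part of the ESC, feeder and two-cell-like marker differences in the values of the recombination genes was not tested. The groups lay at different positions on each slide, so position and siRNA cannot be told apart. Where only KD cells were sorted, or control cells were sorted as reporter-negative, the same holds for sorting. The paper sorted its control cells as reporter-negative for DNA methylation.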

How the data were processed

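The authors deposited the intensity of each spot after the scanner software had subtracted the background, and a table of log2 values made with a 75 percentile shift in GeneSpring. Against the deposited intensity, that log2 table followed 75th percentile shifted values centred per probe on their median (lowest correlation of an array 0.9999, across 39242 probes). The medians of its columns ran from -0.06 to 0.08, and scale, centring and direction are known from this comparison. Other flags and probe names of the deposited files were used as given per the file headers.

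Here the log2 intensity minus each array's 75th percentile was used, without control spots and spots with outlier flags, and repeated spots were averaged per probe. No spot was saturated. Of 39429 probes, 26055 were matched by RefSeq accession to 19751 symbols (GRCm38.p6, used for names and neighbours). A probe was tested if all arrays of 1 or both groups had it well above background (23518 probes, 78 of them lacking a value on some array). A probe counted as above background where at least 0.5 of its unflagged spots were. Other ways of combining these flags, with flagged spots kept, were tried after the data had been seen and with the probe count of an earlier processing of these data known. They gave 23525, 23512 and 23545 probes, and the definition first written was kept.

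The test was limma's lmFit and eBayes (limma 3.58.1, R 4.3.3), p-values were adjusted by Benjamini-Hochberg across every tested probe, and the code was tested on simulated data. One probe stands for a gene where it has the highest mean signal. The named genes are the 9 genes, *L3mbtl2*, *Ddx4*, *Dazl* and *Stra8*, in each list those called and the brightest uncalled ones of each role (up to 3), and the neighbours and most similar genes of called members. *Fignl1*, *Rad54b* and the markers were named beside this rule, and some genes it takes are not reported here. Members and lists were chosen with earlier results of these data known.

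Samples with the same replicate number deviated together from their group means (correlations 0.377 to 0.582), and those with different numbers less (-0.437 to 0.247), so the numbers pair the samples. The pairing is inferred from the values. The labels call the samples biological replicates. Alternatives were normexp (on median spot intensities), quantile normalization, the authors' table, other filters, slide or replicate block, and an intensity trend. Further ones were the one-way test named in the paper's figure legends, a 1.5-fold threshold, 1 probe per gene, each sample left out, and each slide alone.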

Additional observations from a re-analysis of the deposited data

Results flagged for a closer look

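*Ccnb1ip1* in the *L3mbtl2* siRNA samples had 1 sample apart from the others. Its replicate 1 had a value of -1.59 and the other 3 samples a mean of -1.96, and the gap to its nearest neighbour was 0.911 of the range of the group. Of 54 groups of 4 samples examined in this way 1 stood out, and chance alone does so in about 1 in 20 groups. All 4 values lay above every control value.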

How the results depend on the processing

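*Zcwpw1* and *M1ap* kept their direction in all 21 alternatives each, with log2 fold changes from 3.25 to 3.75 and from 1.18 to 1.40. Both lost the call within the first slide alone, where limma called 0 genes in either direction at 2 against 2 samples, although 2419 genes had an unadjusted p under 0.05. There the counts of called members, of meiosis-specific, shared repair and axis genes were all 0. Within the second slide 1 shared repair gene was called lower.

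With the replicate block, the paired fit, 358 genes were called higher and 469 lower, and 3 members were called higher. The block changed the call of no member.

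Normexp called 197 genes higher and 157 lower, with 0 meiosis-specific partners and 1 axis gene lower, and the share of higher calls went from 43.7% to 55.6%. Quantile normalization gave 51.4%. At 1.5-fold, 700 genes were higher and 1014 lower, and of the shared repair genes 2 were higher and 2 lower. A filter that asks for signal above background on all 8 arrays left 290 genes lower. *Mei4* was no longer called there, with no filter or in the adjusted one-way test, so that 0 meiosis-specific partners were lower.

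The calls of *Hormad2*, *Iho1*, *Cntd1*, *Tex12* and *Hormad1* were lost in 7, 4, 2, 2 and 2 of 25 alternatives, and those of the other partners and axis genes named as called, except *Mei4*, only within the first slide.

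Leaving out each sample gave 296 to 371 genes higher and 355 to 500 lower, 2 to 3 members higher, 0 to 1 meiosis-specific partners lower and 0 to 1 shared repair genes lower. The 3 ways of combining spot flags added after seeing the data gave 340, 340 and 341 genes higher and 438, 435 and 441 lower, with 3 members higher in each.

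Signs that turned were all of genes that did not pass the test: *Prdm9* within the first slide (-0.0060), *Msh4* (brighter probe) within the first slide (-0.11), without *L3mbtl2* siRNA replicate 1 (-0.04) and without control replicate 4 (-0.13), *Msh5* after quantile normalization (0.045) and *Mlh3* without control replicate 2 (-0.015). Over the samples left out, *Prdm9* ranged from 0.23 to 0.89, *Msh4* (brighter probe) from -0.13 to 0.37, *Mei1* from -0.39 to -0.08, *Msh5* from -0.13 to -0.01 and *Mlh3* from -0.015 to 0.25. The causes were not tested. Signal over background limits *Prdm9*, *Spo11*, *Msh4* and *Mei4*.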
